A study of Sus scrofa with 6 samples.

Results

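The nuclear-encoded subunits of the mitochondrial respiratory chain and of ATP synthase were compared between male and female aortic valve leaflets. Members were found by gene symbol in the annotation of the array. A probe set counted when it was annotated with only 1 gene whose symbol begins with NDUF, with SDH and a letter from A to D, with UQCR, with ATP5, or with COX and a digit, or equals CYC1 or ATPIF1. This gave 66 genes with 85 probe sets, of the 6765 genes that the annotation names alone for a probe set. Each gene is represented by its probe set with the highest mean over the 6 arrays. The leaflets came from 3 female and 3 castrated male pigs of mixed breed, 1 pig per array, 5 months old and about 90 kg, so the males lacked testicular hormones. No animal was treated, and the endothelium had been scraped from every leaflet with a scalpel. The Affymetrix Porcine Genome Array measured the RNA, and values are log2 expression values from RMA (robust multi-array analysis, which corrects background, equalizes the arrays and summarizes the probes of a probe set). The study searched healthy valves for sex differences that precede calcific aortic valve disease, which is more common in men.

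The respiratory chain oxidizes the products of fuel breakdown in the inner mitochondrial membrane. Complex I takes electrons from NADH and complex II from succinate, complex III passes them to cytochrome c, and complex IV hands them to oxygen. Complexes I, III and IV move protons across the membrane, and complex V, the ATP synthase, makes ATP from their return. Leaflets are thin and carry few vessels, and oxygen reaches their interstitial cells largely by diffusion from the blood.

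Of the 66 genes, 58 encode structural subunits, with 32 in complex I, 4 in complex II, 2 in complex III, 7 in complex IV and 13 in complex V. The other 8 are assembly or associated factors, the inhibitor ATPIF1 and NDUFA4, which was named for complex I but whose protein has been placed with complex IV. The rule found neither CYC1, the Rieske protein UQCRFS1 nor the mitochondrially encoded COX1, COX2 and COX3, so complex III is represented only by small accessory subunits and complex IV has none of its catalytic subunits. All 66 genes lay above the 25th percentile of the array (5.55), and the dimmest, NDUFAF1, lay at percentile 40.1. Replicates were close, with a median SD of 0.091 in males and 0.090 in females on the log2 scale. Array medians ranged from 7.33 to 7.38. Precision is limited by having only 3 arrays of each sex. A pair of female arrays differed from the rest in control probe sets. On female replicate 3 the 5′ control probe sets were low, with a 3′ minus 5′ signal of 3.80 for actin and 2.57 for the elongation factor EF1A, against 2.84 to 2.95 and 1.38 to 1.42 on the other female arrays and 2.35 to 2.57 and 1.28 to 1.46 on the male arrays. An 18S rRNA control stood at 11.35 on female replicate 2 and at 12.51 to 12.72 elsewhere.

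No respiratory chain gene passed the test for a sex difference over all probe sets, and the differences were small and ran mostly one way. Of the 66 genes, 58 had a higher mean in males, and the median log2 fold change (male minus female) was 0.14. Over the 6765 genes named alone, 58.3% had a higher mean in males and the median was 0.05, and over all 23999 probe sets other than controls it was -0.01. With limma over all probe sets, 0 of the 66 reached an adjusted p under 0.05 with at least 2-fold, where 0.304% of all probe sets did, and 0 reached that adjusted p without a minimum fold (0.358% of all probe sets). This depended on how the filter on variable probe sets was set. With the 50% of probe sets that varied most within a sex left out, NDUFA8 (limma adjusted p = 0.0114), NDUFB9 (0.0197) and ATP5G1 (0.0252) passed without a minimum fold, 3 of the 62 members kept against 10.3% of all probe sets kept, and none reached 2-fold. With 10% left out 0 of the 66 passed. At an unadjusted p under 0.05 stood 5 genes (7.58%), a smaller share than the 16.9% of all probe sets, and they were NDUFA8, NDUFB9, NDUFB5, ATP5G1 and ATP5J. That count was 2 without male replicate 1, male replicate 2 or female replicate 3, 10 without female replicate 2 and 11 without male replicate 3. The smaller share did not hold in every fit, since with array weights 18 genes (27.3%) stood there against 24.1% of all probe sets, and with an intensity trend 11 (16.7%) against 16.9%. Each 95% interval gives the differences that the values of 1 gene allow, and it was not adjusted for the number of genes. For all 66 genes the interval lay within 2-fold in either direction, and for 57 of them within 1.5-fold. The interval that reached highest was that of ATP5G1 (0.11 to 0.83) and the one that reached lowest that of NDUFV3 (-0.61 to 0.33).
Male and female values did not overlap for 24 of the 66 genes (36.4%), 23 of them with males higher and 1 with males lower. Over all probe sets the share was 22.4%, with males higher in 11.1% and lower in 11.4%. Over the 6765 genes named alone it was 24.7%, with males higher in 1059 and lower in 614. Among the 66 genes the count was 40 (60.6%, against 38.3% of all probe sets) without male replicate 3. It was 43 (65.2%, against 39.8%) without female replicate 2, and lay between 26 and 30 without any other array. Without female replicate 3, the array with low 5′ controls, 58 genes still had a higher mean in males and 26 did not overlap (39.4%, against 29.2% of all probe sets).

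**Figure D1:**
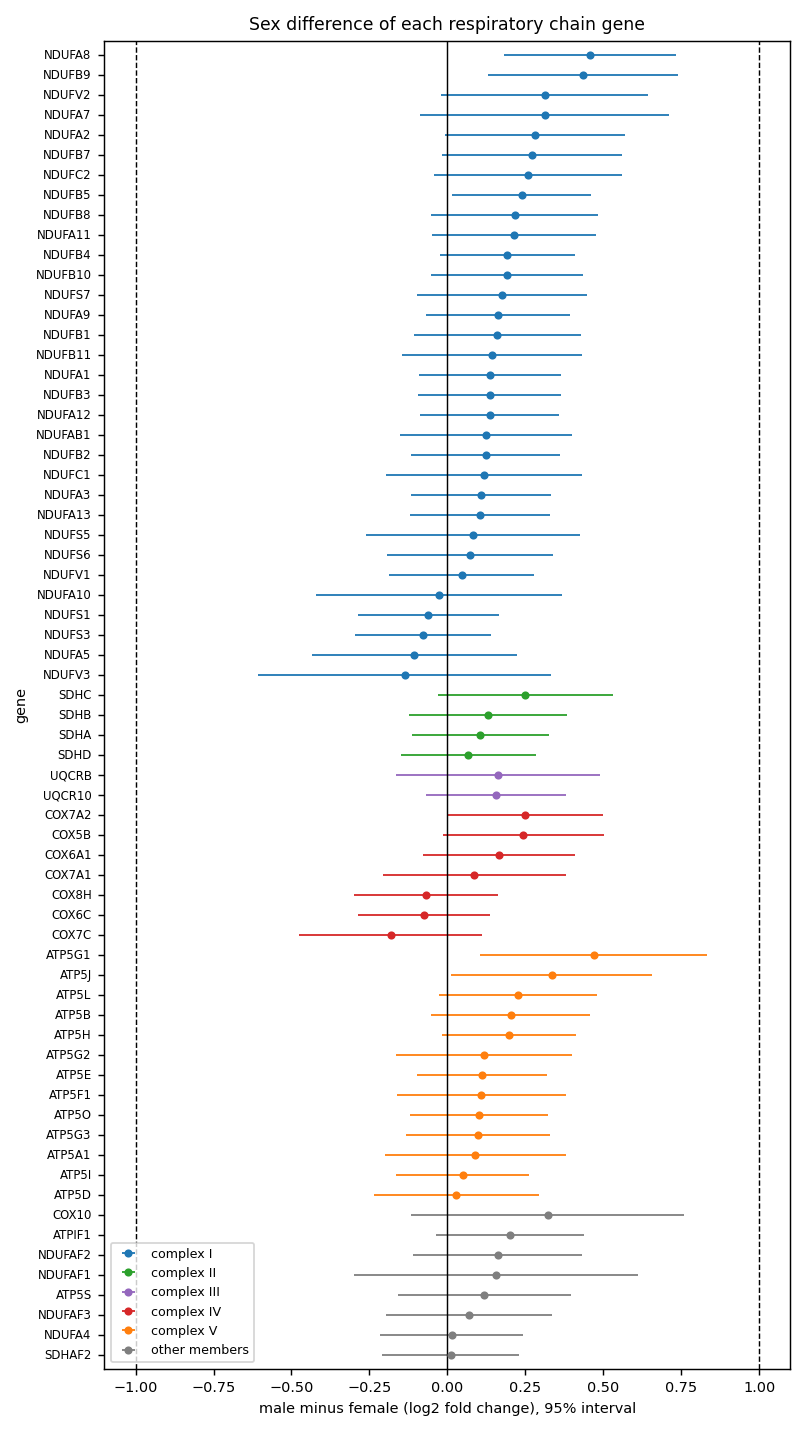
Male minus female log2 fold change of each of the 66 genes (points) with its 95% interval from limma (bars), ordered within each complex. Most points lie right of 0, from -0.18 (COX7C) to 0.47 (ATP5G1), and every bar lies between the dashed lines at 2-fold.

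In complex I the male mean was the higher one for 27 of 32 structural subunits, and the median log2 fold change was 0.14. Of the 32, 11 did not overlap between the sexes (34.4%, against 24.7% of all genes named alone), all higher in males. The highest fold change was that of NDUFA8, an accessory subunit on the intermembrane side. NDUFA8 was at 10.99, 10.75 and 10.65 in males and 10.31, 10.38 and 10.32 in females. All male values lay above all female values, by 1.37-fold in the mean (log2 fold change 0.46 ± 0.12 (SE), limma adjusted p = 0.156). NDUFB9, an accessory subunit of the membrane arm, was at 12.13, 12.08 and 11.80 in males and 11.45, 11.69 and 11.56 in females. Again no male value fell among the female values, with male replicate 3 and female replicate 2 the closest (log2 fold change 0.44 ± 0.13 (SE), limma adjusted p = 0.187). NDUFB5, another membrane arm subunit, which is named here for its unadjusted p, was at 10.74, 10.64 and 10.60 in males and 10.38, 10.45 and 10.44 in females (log2 fold change 0.24 ± 0.09 (SE), limma adjusted p = 0.274). All 10 measured NDUFB genes, whose products sit in the membrane arm, had a higher mean in males (median 0.19). Of these, 7 did not overlap between the sexes (70%, against 24.7% of all genes named alone). Of the 12 structural subunits with NDUFA symbols, NDUFAB1 included, 10 were higher in the mean. There 3 did not overlap (25%), near the 24.7% of all genes named alone.
The core subunits of the matrix arm, which carry the electrons, were divided. NDUFV1, which binds NADH and the flavin, was at 9.85, 9.79 and 9.81 in males and 9.75, 9.87 and 9.68 in females. Its male values lay within the female range (log2 fold change 0.05, limma adjusted p = 0.853). NDUFS1, which holds iron-sulfur clusters, was at 10.05, 9.98 and 9.96 in males and 10.12, 9.97 and 10.08 in females, with a lower mean in males (-0.06). Of the other core subunits, which are named after their values were seen, NDUFS3 had a log2 fold change of -0.08, NDUFS7 of 0.17 and NDUFV2 of 0.31. Dimmer probe sets of the same genes differed, with -0.01 and 0.11 for NDUFV2 and -0.06 and 0.28 for NDUFS3. NDUFV2 overlapped only through male replicate 3 (10.42) and female replicate 2 (10.43). The 5 core subunits had a median of 0.05, 3 were higher in the male mean, and all overlapped. Over the 27 accessory subunits the median was 0.14, and 11 did not overlap (40.7%, against 24.7% of all genes named alone). The difference between core and accessory subunits was not tested. The lowest fold changes of the complex were those of the matrix arm accessory subunits NDUFV3 (-0.14) and NDUFA5 (-0.11). NDUFV3 was at 7.61, 7.52 and 7.25 in males and 7.31, 8.02 and 7.47 in females, and its direction rested on female replicate 2, since the log2 fold change was 0.07 without that array. The X-linked subunits NDUFA1 and NDUFB11 were also picked after their values were seen. They had log2 fold changes of 0.14 and 0.14, at the median of the complex, with overlapping values. A dimmer probe set of NDUFA1 had a log2 fold change of 0.38, also with overlap.

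**Figure D2:**
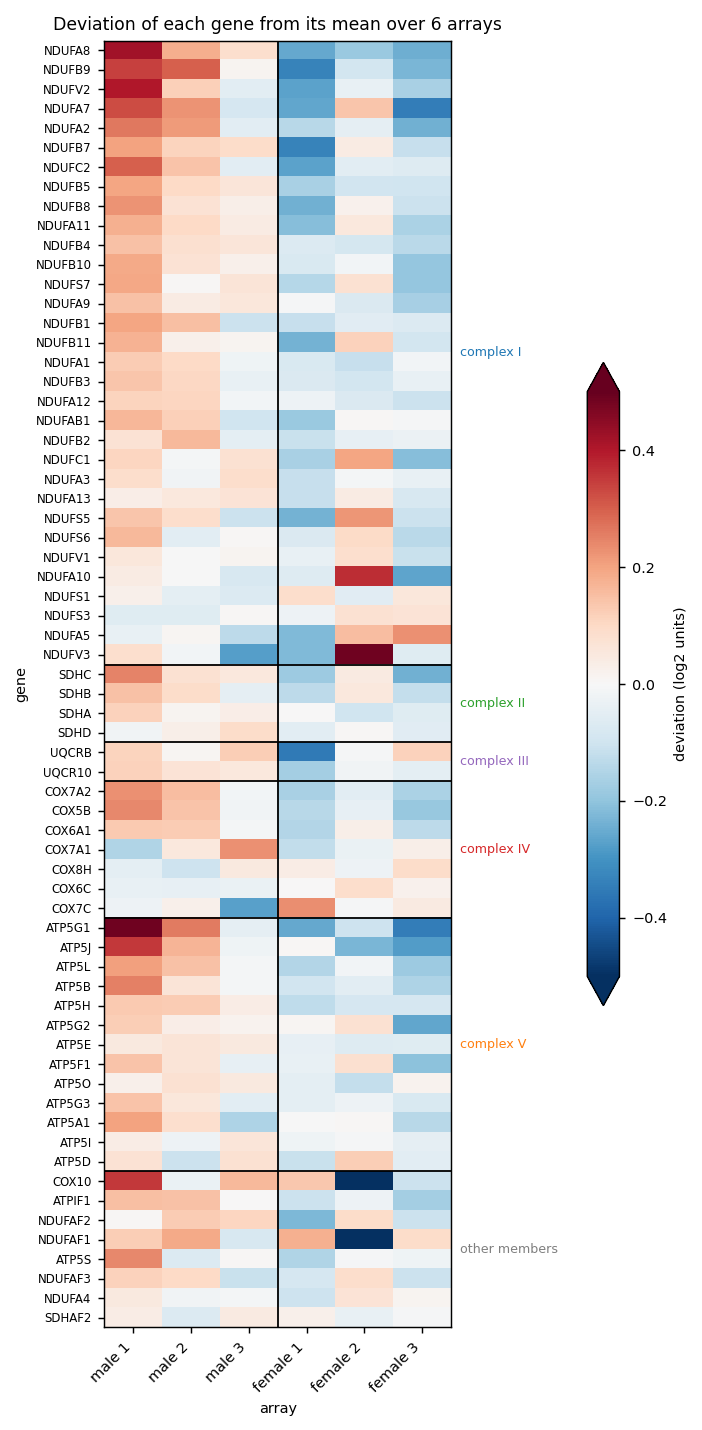
Deviation of each gene from its own mean over the 6 arrays in log2 units (color, saturated beyond 0.5 in either direction), with arrays in columns and genes in rows by complex. Male replicate 1 was the highest array for 41 of the 66 genes, and female replicates 1 and 3 were the lowest for 26 and 23. Over the 6765 genes named alone, male replicate 1 was the highest for 2071, and female replicates 1 and 3 the lowest for 1306 and 1506.

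All 4 subunits of complex II were higher in the male mean by small amounts, with a median of 0.12 on the log2 scale. SDHC, a membrane anchor that helps to bind ubiquinone, was at 10.09, 9.92 and 9.90 in males and 9.66, 9.89 and 9.60 in females. The sexes did not overlap, though male replicate 3 and female replicate 2 were nearly equal (log2 fold change 0.25 ± 0.12 (SE), limma adjusted p = 0.342). SDHA, the flavoprotein that oxidizes succinate, was at 10.74, 10.63 and 10.65 in males and 10.62, 10.52 and 10.56 in females, without overlap and with a log2 fold change of 0.11. The second, dimmer probe set of SDHA had one of 0.39. The iron-sulfur subunit SDHB (0.13) and the anchor SDHD (0.07) overlapped. In complex III the small subunit UQCR10 was at 11.38, 11.34 and 11.32 in males and 11.10, 11.25 and 11.22 in females, without overlap (log2 fold change 0.16, limma adjusted p = 0.458). UQCRB, which lies near the ubiquinone site, had a log2 fold change of 0.16 with overlap, as female replicate 3 (11.41) lay among the males and female replicate 1 (10.95) lay below all other arrays. Its log2 fold change was 0.03 without female replicate 1 and 0.26 without female replicate 3.

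Complex IV was divided. Of its 7 measured subunits, the male mean was higher for 4 and lower for 3, and the median log2 fold change was 0.09 with all arrays and -0.01 without male replicate 3. COX7A2, the form of subunit VIIa found in most tissues, was at 12.46, 12.38 and 12.22 in males and 12.07, 12.17 and 12.07 in females. The sexes did not overlap (log2 fold change 0.25 ± 0.11 (SE), limma adjusted p = 0.3). The zinc-binding subunit COX5B was at 12.40, 12.31 and 12.15 in males and 12.03, 12.13 and 11.98 in females, also without overlap (log2 fold change 0.24). COX6C, a small membrane subunit, went the other way, at 13.08, 13.07 and 13.08 in males and 13.12, 13.20 and 13.14 in females. It was the only gene of the 66 whose male values all lay below the female values, by -0.08 in the mean (limma adjusted p = 0.722), a difference of 1.05-fold. COX7C, another small membrane subunit, was at 12.63, 12.68 and 12.38 in males and 12.89, 12.65 and 12.70 in females, with a log2 fold change of -0.18 (limma adjusted p = 0.508). Female replicate 2 overlapped the males there, and the second probe set of COX7C had a log2 fold change of -0.28.
Heart and skeletal muscle use other forms of some subunits of complex IV. The muscle form COX7A1 was at 9.41, 9.61 and 9.79 in males and 9.44, 9.53 and 9.59 in females and COX8H, the muscle form of subunit VIII, at 7.39, 7.33 and 7.49 in males and 7.48, 7.41 and 7.53 in females. Both overlapped between the sexes, with log2 fold changes of 0.09 and -0.07, and COX6A1, the form of subunit VIa of most tissues, had one of 0.17. COX7A2 minus COX7A1, taken within each array, differed between the sexes by 0.16 on the log2 scale, with overlap (two-sided exact permutation test, n = 3 per sex, p = 0.5). The list of cardiomyocyte markers had 14 of 20 genes measured, and 8 of the 14 lay below the 25th percentile of the array, among them the cardiac troponin TNNT2, the actin ACTC1, the natriuretic peptide NPPA and the myosin light chain MYL2. Its summed level was 10.14 to 10.34 on male arrays and 10.04 to 10.12 on female arrays. The genes were divided, with 7 higher and 7 lower in the male mean and a median of -0.02. Phospholamban (PLN, log2 fold change 1.32 ± 0.34 (SE), limma adjusted p = 0.158) was the only marker of the list with an unadjusted p under 0.05. PLN was at 8.37, 8.63 and 7.42 in males and 6.39, 7.18 and 6.92 in females, and the sum was not taken without it. TNNI3 was the lowest (-0.43), and MYL3 (-0.18) was lower in all males. The part of muscle cells in the values of the chain was not tested.

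All 13 measured genes for subunits of ATP synthase were higher in the male mean by the probe sets used, and the median log2 fold change was 0.11. Dimmer probe sets of ATP5L of the membrane part, at 0.23 in the one used, had log2 fold changes of -0.03 and 0.34. Of the 13 genes, 6 did not overlap (46.2%, against 24.7% of all genes named alone). With arrays centered on ribosomal protein genes the median was 0.07 and ATP5D was lower in males (-0.0136), as it was with array weights (-0.0119) and without male replicate 1, male replicate 3 or female replicate 1. The highest fold changes were those of ATP5G1 and ATP5J. ATP5G1, 1 of the 3 genes for the c subunit of the rotating ring, was at 11.72, 11.49 and 11.19 in males and 10.98, 11.13 and 10.89 in females. The sexes did not overlap, with the males 1.38-fold higher in the mean (log2 fold change 0.47 ± 0.15 (SE), limma adjusted p = 0.214). ATP5G2 and ATP5G3, which encode the same mature protein, had log2 fold changes of 0.12 and 0.10 and overlapped. Within arrays, ATP5G1 relative to the mean of ATP5G2 and ATP5G3 was 0.36 higher in males on the log2 scale. That difference did not overlap between the sexes and gave p = 0.1, the smallest p that a two-sided exact permutation test of 3 against 3 arrays can give, and p = 0.2 adjusted over the 2 isoform contrasts made, which were chosen with the values known.
ATP5J, coupling factor 6 of the peripheral stalk, was at 10.55, 10.36 and 10.17 in males and 10.20, 9.97 and 9.92 in females, and male replicate 3 fell just under female replicate 1 (log2 fold change 0.33 ± 0.14 (SE), limma adjusted p = 0.284). The catalytic β subunit ATP5B was at 12.23, 12.05 and 11.97 in males and 11.89, 11.93 and 11.83 in females, without overlap (log2 fold change 0.20). Its partner in the F1 head, the α subunit ATP5A1, overlapped (log2 fold change 0.09, 0.01 without male replicate 1 and 0.19 without male replicate 3). ATP5E of the central stalk, which is named after its values were seen, was at 13.30, 13.32 and 13.30 in males and 13.21, 13.19 and 13.20 in females. Replicates lay close together there, so that a log2 fold change of 0.11 came without overlap. The lowest fold changes were those of ATP5D of the central stalk (0.03) and ATP5I of the membrane part (0.05). ATPIF1, the inhibitor that blocks ATP hydrolysis when the proton gradient fails, was at 11.77, 11.76 and 11.62 in males and 11.51, 11.59 and 11.45 in females. It did not overlap between the sexes (log2 fold change 0.20 ± 0.10 (SE), limma adjusted p = 0.364).

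**Figure D3:**
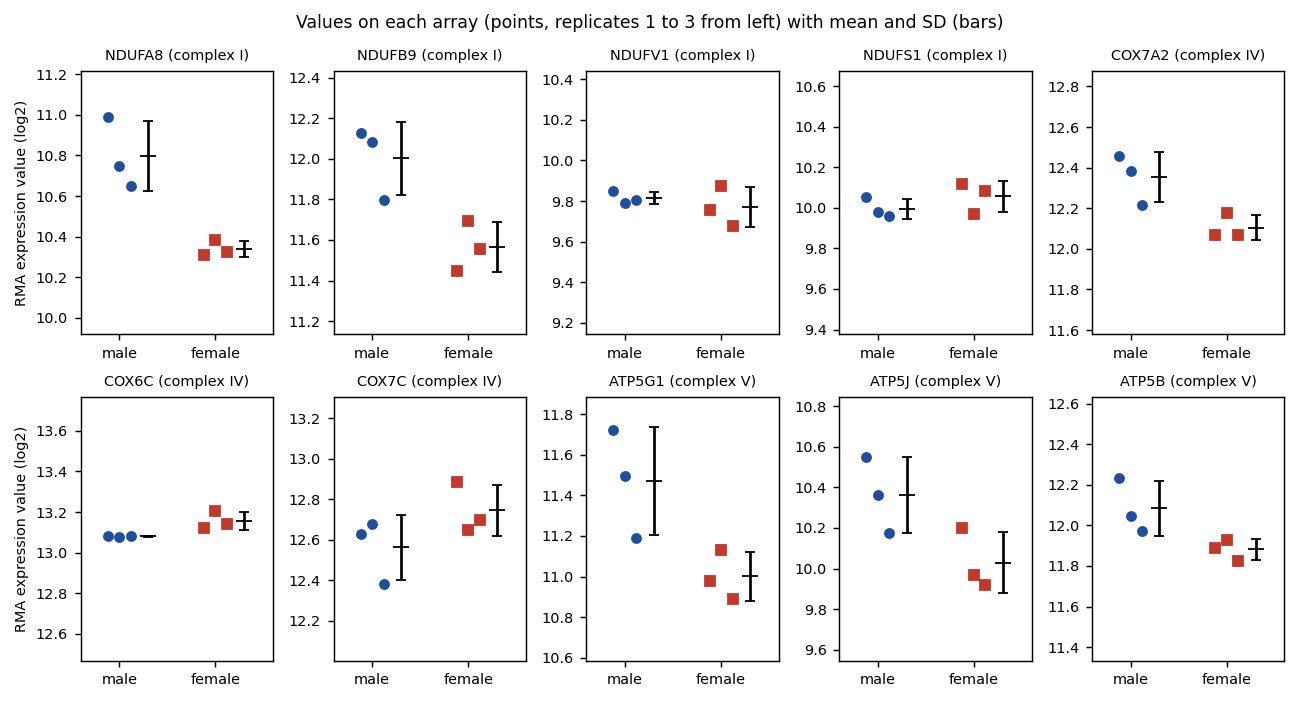
RMA expression values (log2) of 10 genes by sex, circles for the 3 males and squares for the 3 females, with bars for the mean and SD, on axes that each span the same 1.3 log2 units and do not start at 0. NDUFA8, NDUFB9, COX7A2, ATP5G1 and ATP5B lie higher in all males, COX6C lies lower in all males, and NDUFV1, NDUFS1, COX7C and ATP5J overlap.

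The 8 genes outside the structural subunits, of which NDUFA4 and ATPIF1 were named by rule and the others after their values were seen, were also higher in the male mean, from 0.01 for SDHAF2, which attaches the flavin to SDHA, and for NDUFA4 to 0.32 for COX10, which makes a heme A precursor. The sign of NDUFA4 turned with arrays centered on ribosomal protein genes (-0.0284), without male replicate 1 (-0.0055) and without female replicate 1 (-0.0345). Only ATPIF1 among them did not overlap (12.5%, against 24.7% of all genes named alone). COX10 and the complex I assembly factor NDUFAF1 were lowest on female replicate 2, at 7.06 and 6.15, while the other female values were 7.46 to 7.71 and 6.75 to 6.83. Of the 66 genes 16 had more than 1 probe set, and 5 of their 19 other probe sets differed in sign from the one used. The widest such gap was that of ATP5S, a factor associated with ATP synthase, with log2 fold changes of 0.12 and -0.32.

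The arrays of a sex were not alike in these genes. Averaged over the 66 genes, the deviation from the gene mean was 0.14 on male replicate 1, 0.07 on male replicate 2, -0.11 on female replicate 1 and -0.10 on female replicate 3. Male replicate 3 (-0.0015) and female replicate 2 (-0.0040) stood nearly level, between the other males and the other females. All 6765 genes named alone also deviated by array, so such a pattern is not particular to the chain. Their mean deviations were smaller, at 0.05, 0.04 and 0.002 on the male and -0.02, -0.02 and -0.05 on the female arrays. The 63 cytosolic ribosomal protein genes deviated by 0.06, 0.05 and -0.02 on the male and by -0.08, 0.05 and -0.06 on the female arrays, with a median log2 fold change of 0.05. When arrays were centered on them, 55 of the 66 genes had a higher mean in males and the median log2 fold change was 0.09.
The scraped leaflets still held signal of endothelial cells, in a similar order over the arrays. The summed level of 13 measured endothelial markers was 14.83, 14.46 and 13.75 on the male and 13.31, 13.87 and 13.26 on the female arrays. Of these markers 11 were higher in the male mean, led by ICAM2 (1.70) and ESAM (1.59), and ERG (-0.25) and KDR (-0.19) were lower. KDR lay below the 25th percentile in both sexes. The paper reports KDR as upregulated in males, and this dim probe set cannot decide on that report. No overlap was seen for 6 of the 13 (46.2%, against 24.7% of all genes named alone). VWF (0.38) overlapped and was highest on female replicate 2 (11.33). The paper reports successful scraping, from staining of von Willebrand factor in a parallel set of leaflets. Markers of valve interstitial cells and fibroblasts, of which 13 were measured, summed to 16.79 to 17.00 in males and 16.97 to 17.15 in females, and 11 were lower in the male mean, while S100A4 stood at 1.20. The 3′ minus 5′ signal of actin was lower on every male array (2.35 to 2.57) than on every female array (2.84 to 3.80), while that of GAPDH overlapped. The part of endothelial cells and of RNA quality in the small shift of the respiratory chain was not tested. In leaflet RNA, more cells of a type and more RNA per cell cannot be told apart.

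**Figure D4:**
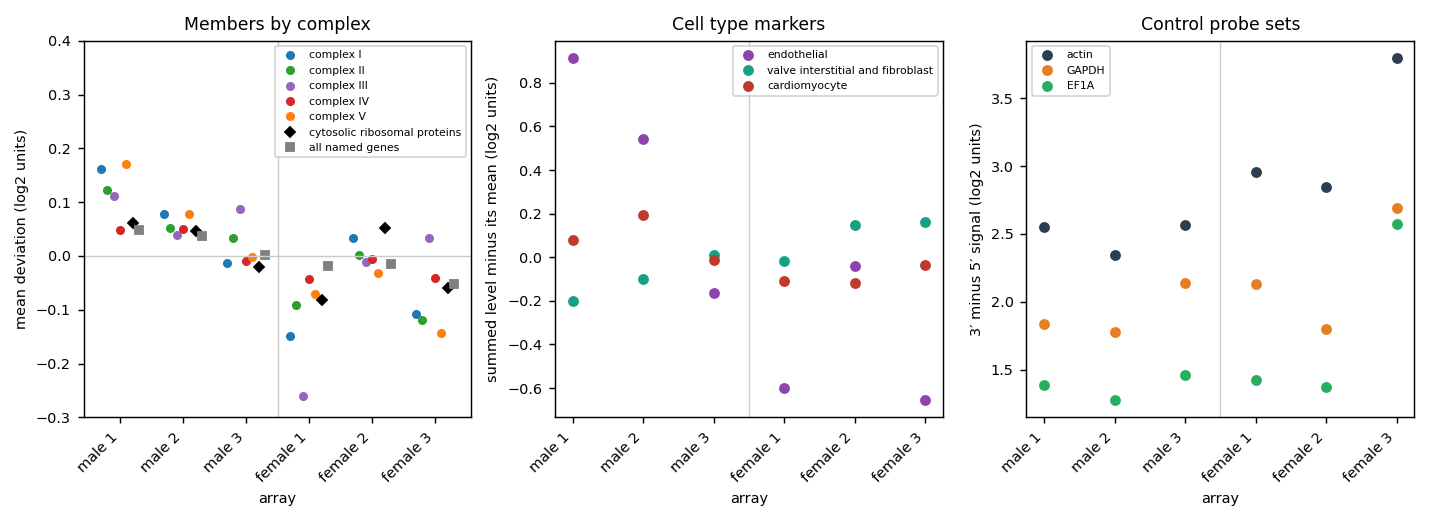
Left, mean deviation from the gene mean in log2 units for each complex, for 63 ribosomal protein genes and for all 6765 genes named alone. Middle, summed level of the markers of 3 cell types minus its mean, and right, 3′ minus 5′ signal of control probe sets, by array. Male replicates 1 and 2 lie above 0 in every complex and in the endothelial markers, and female replicate 3 has the highest 3′ minus 5′ signals.

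Genes that feed or serve the chain were taken from lists of known pathway members, and no gene of these lists passed the test over all probe sets. Of 16 measured genes of the tricarboxylic acid cycle and pyruvate dehydrogenase, 13 were higher in the male mean, with a median log2 fold change of 0.14. No overlap was seen for 5 (31.2%, against 24.7% of all genes named alone). DLST, a subunit of 2-oxoglutarate dehydrogenase, was at 11.78, 11.54 and 11.22 in males and 11.03, 11.14 and 11.03 in females (log2 fold change 0.45 ± 0.15 (SE), limma adjusted p = 0.227). MDH2, malate dehydrogenase, had a log2 fold change of 0.20, and the succinyl-CoA ligase subunits SUCLA2 and SUCLG2 had lower means in males (-0.09 and -0.06).
Regulators of mitochondrial biogenesis did not share the direction, with 4 of 8 measured genes higher and a median of 0.01. PPARGC1A, the coactivator PGC-1α that drives transcription of respiratory chain genes, was at 4.87, 4.74 and 6.04 in males and 6.57, 5.48 and 6.44 in females. The sexes overlapped, and the lower male mean did not pass (log2 fold change -0.95 ± 0.41 (SE), limma adjusted p = 0.307). The values of male replicates 1 and 2 and of female replicate 2 were dim, under 5.55 (the 25th percentile), and the size of this difference is uncertain. TFAM, which activates transcription of mitochondrial DNA and packs it, had a log2 fold change of -0.05, SSBP1, which binds single-stranded mitochondrial DNA, of 0.20, TFB1M, which methylates mitochondrial ribosomal RNA, of 0.12 and PPARA, a receptor that controls fatty acid oxidation, of -0.11, at values below the 25th percentile on every array.
Of 23 measured carriers and electron transfer partners 15 were higher in the male mean (median 0.07). UCP2, an uncoupling protein relative of the inner membrane, had the largest difference of these lists at 8.99, 9.11 and 8.76 in males and 8.40, 7.86 and 7.13 in females, 2.22-fold in the mean and without overlap (log2 fold change 1.15 ± 0.30 (SE), limma adjusted p = 0.159). The import protein CHCHD4 had a log2 fold change of 0.52, cytochrome c (CYCS) of -0.19 and ETFDH, which passes electrons from fatty acid oxidation to ubiquinone, of -0.16. Among 17 assembly factors and chaperones 12 were higher in the male mean (median 0.08), led by CHCHD3 of the cristae junctions (0.39) and the copper chaperone SCO2 (0.31), with TMEM70 (-0.09) and ATPAF1 (-0.11), which help to assemble ATP synthase, at the other end.
Cytosolic glycolysis was divided, with 8 of 14 measured genes higher in males and a median of 0.03. LDHA, which turns pyruvate into lactate, was at 12.32, 12.20 and 12.00 in males and 11.76, 11.69 and 11.72 in females, without overlap (log2 fold change 0.45 ± 0.11 (SE), limma adjusted p = 0.151). GAPDH was higher in the mean by 0.26, the glucose transporter SLC2A1 lower (-0.45, without overlap) and the aldolase ALDOC lower (-0.22), and none passed over all probe sets.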

How the data were processed

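Leaflet RNA of 3 male and 3 female pigs was hybridized to 1 Affymetrix Porcine Genome Array each. The authors normalized the arrays with RMA (the submitters' processing notes also list R 2.12.0) and deposited log2 values for 24123 probe sets, 124 of them controls. All 66 member symbols are in the RefSeq gene table.

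The sexes were compared over the 23999 other probe sets with lmFit and eBayes of limma 3.58.1 (R 4.3.3, statmod 1.5.0), with no covariate and Benjamini-Hochberg adjustment over all of them. Calls needed an adjusted p under 0.05 and at least 2-fold, as in the methods. The methods also leave out probe sets that vary between replicates, by the coefficient of variation (CV), with no limit stated, so the fit used no such filter. As alternatives added after seeing the data, the probe sets in the top 10% or top 50% by CV within a sex were left out. The fit was tested on simulated data. Isoform contrasts used exact permutation tests. Plots were made with matplotlib 3.10.9.

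Named genes are the 2 highest and 2 lowest structural subunits of each complex, tissue isoforms, catalytic core subunits, ATPIF1, any called gene, members whose probe sets differ by over 0.5 with opposite signs (there were none), and the 2 highest and 2 lowest genes of the lists. Members and lists were chosen with earlier results of these data known.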

Additional observations from a re-analysis of the deposited data

How the results depend on the processing

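No member was called at 2-fold under any of the 16 alternative settings that could be fitted. These were dim probe sets left out, 2 other centerings, an intensity trend, array weights, the mean of all probe sets of a gene, the replicate block, each array left out, robust hyperparameters, and probe sets in the top 10% or top 50% by CV within a sex left out, the last 3 added after seeing the data. Without a minimum fold 0 members passed in 15 of them, and 3 with 50% left out (NDUFA8, NDUFB9 and ATP5G1), where removing variable probe sets lowers the estimated spread by construction. The smallest adjusted p of a member from limma lay between 0.0114 (that setting) and 0.402 (without male replicate 1), and was 0.0589 with array weights. A filter listed at the outset, which kept only the top 10% by CV over all 6 arrays, runs opposite to that of the methods, kept no member and gives no value. Between 55 and 58 members were higher in the male mean. The median log2 fold change was 0.11 to 0.18 with an array left out, and 0.09 to 0.15 otherwise. By complex the range with an array left out was 0.11 to 0.18 (I), 0.09 to 0.15 (II), 0.07 to 0.22 (III), -0.006 to 0.143 (IV, lowest without male replicate 3) and 0.10 to 0.18 (V). In the other settings it was 0.10 to 0.17 (I), 0.08 to 0.17 (II), 0.12 to 0.16 (III), 0.04 to 0.09 (IV) and 0.07 to 0.14 (V), with the lowest under centering on ribosomal protein genes. With associated factors included, no median of a complex moved by more than the spread between replicates.

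The count at an unadjusted p under 0.05 was 5. It was 2 without male replicate 1, male replicate 2 or female replicate 3 (9.77%, 11.5% and 11.4% of all probe sets), 11 without male replicate 3 (19.2%), 10 without female replicate 2 (18.5%), 3 with centering on ribosomal protein genes (16.1%), 11 with an intensity trend (16.9%), 18 with array weights (24.1%), 8 with 10% of variable probe sets left out (19.0%) and 19 with 50% left out (26.0%). The cause was not tested. Among the named members the sign turned for ATP5D, NDUFA4, COX7A1 and NDUFV3. With centering on ribosomal protein genes ATP5D was at -0.0136 and NDUFA4 at -0.0284, and with array weights ATP5D was at -0.0119. With an array left out ATP5D ranged from -0.0188 to 0.0971, NDUFA4 from -0.0345 to 0.0522, COX7A1 from -0.006 to 0.183 and NDUFV3 from -0.280 to 0.0725.

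The sample titles give replicate numbers and state no pairing of the pigs. The deviations of same-numbered arrays correlated at -0.10, 0.01 and 0.27, and 2 of 3 male arrays correlated best with a female array of another number. The 0.27, between the arrays numbered 3, was the highest over all pairs. Deviations were centered on the 3 arrays of each sex, which ties the correlations to one another. They therefore cannot decide whether arrays of the same number share a batch. With the replicate block 0 members were called and 5 had an unadjusted p under 0.05. The block cannot move a fold change in this balanced design, so the median of 0.14 is the same by construction.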

Other observations

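No gene of the marker lists of other cells was called in the fit used here, which had no CV filter. The paper, which filtered by CV, lists the endothelial markers ICAM2, ESAM and KDR as differentially expressed between the sexes. Here ICAM2 had a log2 fold change of 1.70 (limma adjusted p = 0.0751) and ESAM of 1.59 (limma adjusted p = 0.115). Of 9 measured skeletal muscle markers 7 lay below the 25th percentile of the array, and 2 of the 9 had a higher mean in males. Smooth muscle markers were higher in 3 of 6 genes (median log2 fold change -0.06), with the summed level at 13.53 to 14.12 in males and 13.53 to 13.97 in females. Macrophage markers were higher in 5 of 9 (median 0.26), lymphocyte markers in 5 of 9 (0.07), adipocyte markers in 2 of 5 (-0.02) and erythroid markers in 2 of 3 (0.09).

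ENO3, the muscle enolase, was at 6.37, 6.74 and 6.80 in males and 7.05, 7.21 and 7.11 in females, lower in all males (log2 fold change -0.49 ± 0.14 (SE), limma adjusted p = 0.178). CD8A, a marker of cytotoxic T cells, had a log2 fold change of 0.55 and FABP4, a fatty acid binding protein of adipocytes and capillary endothelium, one of 0.94, both with overlap. TYROBP, an adaptor of myeloid receptors, had one of 0.42, and MYOCD, a coactivator of smooth muscle genes, one of -0.55. ADIPOQ, the adipocyte hormone adiponectin, lay below the 25th percentile in both sexes.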
